A study of Homo sapiens with 6 samples.

Results

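Collagen chain genes were examined for a change with knockdown of DAB2IP, a scaffold and RasGAP protein, in MCF10A cells. The genes are the protein-coding rows of the deposited count table whose symbol is COL, a number, A and a number, with COL17A1 left out, which gave 43 of the 58735 genes. RNA-Seq was performed on 6 libraries of MCF10A, an established nonmalignant breast epithelial line. Of these, 3 came from cells labelled WT that received a nontargeting pool of siRNA (siControl), and 3 came from cells labelled DAB2IP knockdown that received a DAB2IP-targeting siRNA (siDAB2IP), and RNA was taken 48 hours later. All cells of both groups were transfected with siRNA and grown in the same medium with horse serum, insulin, epidermal growth factor, cholera toxin and hydrocortisone. The model is limited to 1 cell line, 1 siRNA reagent per group and 1 time, and the labels do not say whether the 3 libraries of a group are separate cultures, so the p-values measure the spread between these libraries, which may be technical. RNA was measured in bulk, so fewer cells of a type and less RNA per cell cannot be told apart.

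Collagens are extracellular matrix proteins built as trimers of alpha chains, each chain encoded by its own gene and wound with its partners into a helix in the endoplasmic reticulum. Fibrillar collagens make up tissue fibrils, FACIT collagens (fibril-associated collagens with interrupted helices) sit on the surface of such fibrils, and type IV collagens form the sheet-like network of basement membranes. Breast epithelial cells rest on a basement membrane, while most fibrillar collagen of the breast is made by stromal fibroblasts.

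Of the 43 collagen chain genes, 39 had at least 1 count in some library and 29 had a count in every library. A total of 24 passed the filter on low counts and were tested. The libraries held 16353783 to 21916062 counts, and a count of 0 allows at most 3 counts, or 0.139 to 0.187 CPM (counts relative to the library total, scaled with the TMM factors of edgeR), a limit that covers counting error only. COL11A1, COL6A5, COL9A1 and COL15A1 had no count in any library. The other 15 untested genes reached at most 17 counts and 0.998 CPM in any library. Of the 24 tested, 21 were above the 0.574 CPM cutoff of the filter in all 6 libraries. The exceptions were COL9A2, COL4A4 and COL2A1, and 0 genes passed through the libraries of 1 group alone.

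The knockdown was seen in every siDAB2IP library. DAB2IP was at 91.6 ± 13.1 CPM (SD, n = 3) in siControl and 25.1 ± 2.57 CPM (SD, n = 3) in siDAB2IP, which gave a log2 fold change of −1.86 ± 0.13 (standard error; Benjamini-Hochberg adjusted p = 9.71e-05, edgeR quasi-likelihood test). All 8 mammary epithelial markers examined were among the genes tested, and their summed level was 7133 to 8749 CPM in siControl and 4811 to 5740.3 CPM in siDAB2IP. Of these 8 genes, KRT5, KRT14 and KRT17 fell and LAMB3 rose. Of 8 fibroblast markers, 4 passed the filter, and the list summed to 168 to 332 CPM in siControl and 163 to 262 CPM in siDAB2IP, most of it DCN. PDGFRA, THY1, LUM and ASPN had at most 7 counts in any library. Over the 6 libraries, DCN was at 122 to 275 CPM, FAP at 13.1 to 38.6, POSTN at 6.36 to 50.1 and PDGFRB at 0.232 to 1.23 CPM. The 4 endothelial markers summed to 23.1 to 33.1 CPM in siControl and 14.8 to 16.3 CPM in siDAB2IP, and KDR fell. The 4 pericyte and smooth muscle markers summed to 8.16 to 10.6 and 11.3 to 12.8 CPM. Of the leukocyte markers, CD14 was at 35.9 to 69.7 CPM in siControl and 49.5 to 77.2 CPM in siDAB2IP, and CD3E had a count of 0 in every library. The part of these markers in the collagen values was not tested.

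The promoter windows of COL16A1, COL4A1 and COL4A5 are shown because these genes passed the test for a change with knockdown and because the latter pair each start next to another type IV gene. COL1A1 also passed the test, but no promoter window was at hand for it. Windows run from 250 bases before to 50 bases after the RefSeq start, are written 5′ to 3′ on the gene's strand and come from RefSeq on GRCh38.p14. The COL16A1 window is chr1:31703968-31704267 on the minus strand, the COL4A1 window is chr13:110307108-110307407 on the minus strand, and the COL4A5 window is chrX:108439588-108439887 on the plus strand. Capitals mark matches, on either strand, to GGGCGG (a GC box) and CCAAT.
COL16A1: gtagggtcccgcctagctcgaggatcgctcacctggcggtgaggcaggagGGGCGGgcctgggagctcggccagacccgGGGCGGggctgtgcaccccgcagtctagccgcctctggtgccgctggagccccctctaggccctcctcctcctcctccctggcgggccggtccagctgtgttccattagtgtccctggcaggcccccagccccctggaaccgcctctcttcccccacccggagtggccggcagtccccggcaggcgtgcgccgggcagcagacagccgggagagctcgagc
COL4A1: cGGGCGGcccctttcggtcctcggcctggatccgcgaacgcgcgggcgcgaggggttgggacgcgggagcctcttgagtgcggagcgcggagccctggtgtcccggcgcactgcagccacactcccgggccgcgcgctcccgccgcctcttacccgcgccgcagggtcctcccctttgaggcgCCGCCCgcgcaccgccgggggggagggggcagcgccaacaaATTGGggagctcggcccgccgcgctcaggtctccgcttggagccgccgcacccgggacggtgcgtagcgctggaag
COL4A5: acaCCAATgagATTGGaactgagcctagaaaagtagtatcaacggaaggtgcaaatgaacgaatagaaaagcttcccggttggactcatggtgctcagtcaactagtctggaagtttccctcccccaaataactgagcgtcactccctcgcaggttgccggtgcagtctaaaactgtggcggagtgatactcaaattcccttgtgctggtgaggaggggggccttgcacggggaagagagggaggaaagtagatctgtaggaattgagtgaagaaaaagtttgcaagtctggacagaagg
The bases of these windows are 73.7% G or C for COL16A1, 76.7% for COL4A1 and 49.3% for COL4A5. COL4A1 and COL4A2 start 127 bases apart and are transcribed away from each other, so their windows share 226 bases. COL4A5 and COL4A6 start 380 bases apart in the same arrangement and share 121 bases of their windows, and COL4A6 has a further RefSeq start 1416 bases from that of COL4A5. COL4A3 and COL4A4 start 419 bases apart. Of the 43 collagen genes, 31 were found in the promoter table, with 43 windows in all. GGGCGG was found in 24 of these windows and in 45% of all 35116 promoters of the table, and CCAAT in 13 windows and in 34.6% of all promoters. TATAAA was found in 7 windows (11.5% of all promoters), the AP-1 motif TGANTCA in 1 window (7.71%) and the κB motif in 5 windows (11.3%), all searched on both strands. The windows with a κB match belong to COL4A4, COL7A1, COL25A1, COL15A1 and COL6A2, and the printed windows hold no κB, TATAAA or TGANTCA match. A match describes letters and does not show that a factor binds there.

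Most of the collagen RNA of these cells came from a few genes. FPKM are counts divided by the summed length of a gene's annotated exons and by the library total. This length can exceed that of a transcript (19293 bases were used for COL4A2), so levels of different genes compare only roughly. The mean FPKM over all 6 libraries was 44.4 for COL7A1, 37.2 for COL4A5, 34.8 for COL4A6, 26.6 for COL16A1, 25.4 for COL8A1, 16.7 for COL4A2, 11.1 for COL6A1 and 10.4 for COL12A1. These were the 8 collagen genes with a mean of at least 10 FPKM, and 13 had a mean of at least 1. COL7A1, whose product forms the fibrils that anchor epithelial basement membrane to the stroma, had the highest mean of both groups, at 47.4 ± 5.13 FPKM (SD, n = 3) in siControl and 41.4 ± 5.04 FPKM (SD, n = 3) in siDAB2IP. COL4A5 in siControl (43.3 ± 2.67 FPKM) and COL7A1 differed by less than the spread between libraries, as did COL7A1 and COL16A1 (34.9 ± 13.5 FPKM) in siDAB2IP, where COL16A1 was above COL7A1 in replicate 3, and COL4A5 (31.1 ± 1.92 FPKM) and COL4A6 (31 ± 4.37 FPKM) in siDAB2IP. In CPM, COL7A1, COL4A5 and COL4A6 together held 44.1% to 57.2% of all collagen counts of a library, and the 9 highest genes held 94.6% to 96.8%. By mean CPM, COL4A2 ranked above COL16A1 and COL8A1.

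**Figure D1:**
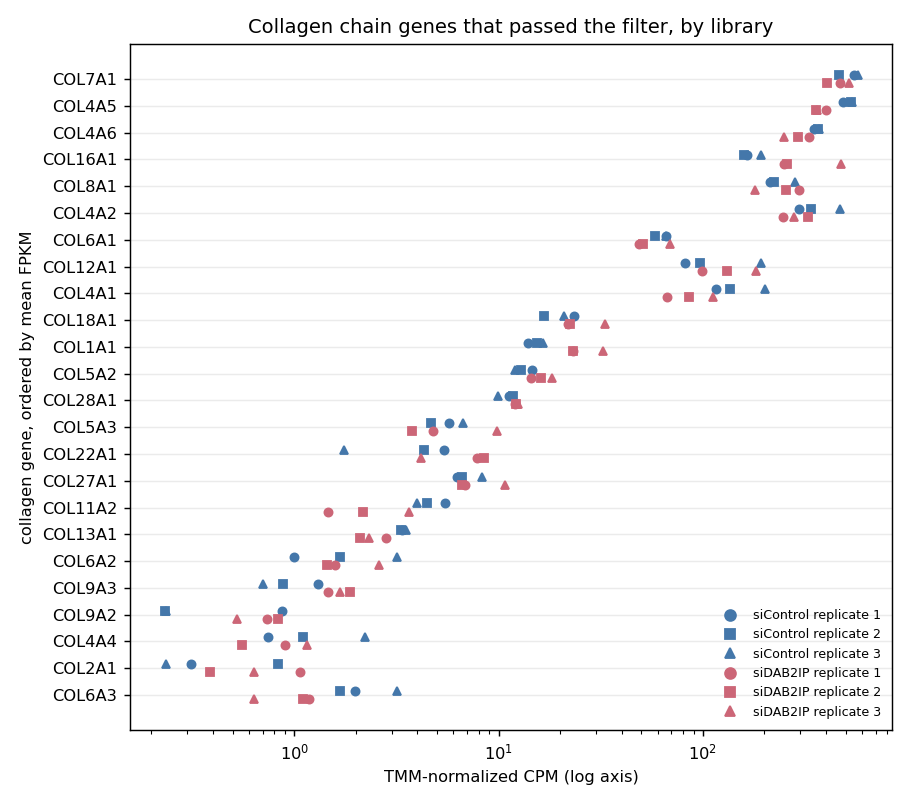
TMM-normalized CPM (log axis) of the 24 collagen chain genes tested, 1 row per gene in order of mean FPKM, with 1 point per library, blue for siControl and red for siDAB2IP. The levels run from 0.232 CPM (COL9A2) to 573 CPM (COL7A1), and in most rows the points of both groups overlap, whereas COL16A1 and COL1A1 lie higher and COL4A5 and COL4A1 lower in all siDAB2IP libraries.

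Partner chains of a trimer were often present at unequal levels. COL1A1, the alpha1 chain of type I collagen, had a mean of 2.1 FPKM, while COL1A2, the alpha2 chain of the same trimer, had 7 counts in all 6 libraries together and 0 in 3 of them. COL6A1 had a mean of 11.1 FPKM, against 0.351 for COL6A2 and 0.0821 for COL6A3, its partners in the beaded filaments of type VI collagen. COL8A1 had a mean of 25.4 FPKM, and its partner COL8A2 had 0.0841 FPKM and 44 counts in all. COL5A2 had a mean of 1.96 FPKM, and COL5A1, the chain with which it assembles, had 0.0547 FPKM and 65 counts in all. The type IV pairs were closer to each other: COL4A5 and COL4A6 had a ratio of mean FPKM of 1.07, and COL4A1 and COL4A2 a ratio of 0.482. These values depend on the exon lengths used, 14738 bases for COL4A1, 19293 for COL4A2, 5343 for COL6A1 and 19633 for COL6A3. In counts over all 6 libraries, COL6A1 had 6406 and COL6A3 had 174. COL3A1, the other major collagen of loose connective tissue fibrils, had at most 2 counts in any library.

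**Figure D2:**
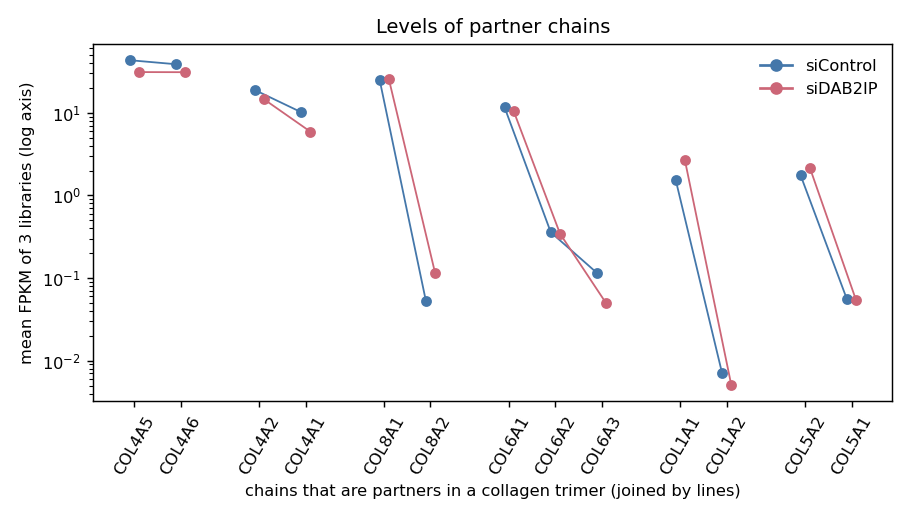
Mean FPKM of 3 libraries (log axis) for chains that assemble with each other, joined by lines, in siControl (blue) and siDAB2IP (red). Levels are close for COL4A5 and COL4A6 and within a few-fold for COL4A2 and COL4A1, while COL8A2, COL6A2, COL6A3, COL1A2 and COL5A1 lie far below the chain they are joined to in both groups.

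Few collagen genes changed with knockdown, and they did not move one way. With an adjusted p under 0.05, 2 of the 24 rose (8.33%), COL16A1 and COL1A1, where 6.55% of all 15430 genes tested rose. Another 2 fell (8.33%), COL4A5 and COL4A1, where 7.65% of all genes tested fell. The remaining 20 did not pass the test. The median log2 fold change of the 24 was 0.06 (range −1.21 to 0.93), beside 0.01 for all genes tested, with 13 genes above 0 and 11 below. Of all 15430 genes tested, 7884 were above 0 and 7546 below. At an unadjusted p under 0.05, 3 of the 24 collagen genes were higher and 5 lower, beside 2238 and 2398 of all 15430 genes tested. The groups did not overlap, with siDAB2IP higher, for 4 of the 24 (16.7%; COL16A1, COL1A1, COL28A1 and COL9A3), against 17.6% of all genes tested. With siDAB2IP lower they did not overlap for 6 (25%; COL4A5, COL4A6, COL4A1, COL11A2, COL13A1 and COL6A3), against 18.3%. These shares rest on few genes and lie near those of all genes. The summed level of the 43 genes was 2419.7, 2464 and 2980.1 CPM in the siControl libraries and 2308, 2267 and 2564 CPM in the siDAB2IP libraries. The siDAB2IP mean of 2379.5 ± 161 CPM was 90.8% of the siControl mean of 2621 ± 312 CPM (SD, n = 3 each), a difference smaller than the spread of the siControl libraries. Each siDAB2IP library was below the siControl library of its replicate number, at 95.4%, 92% and 86% of it for numbers 1, 2 and 3. Without siControl replicate 3 the siDAB2IP mean was 97.4% of the siControl mean.

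**Figure D3:**
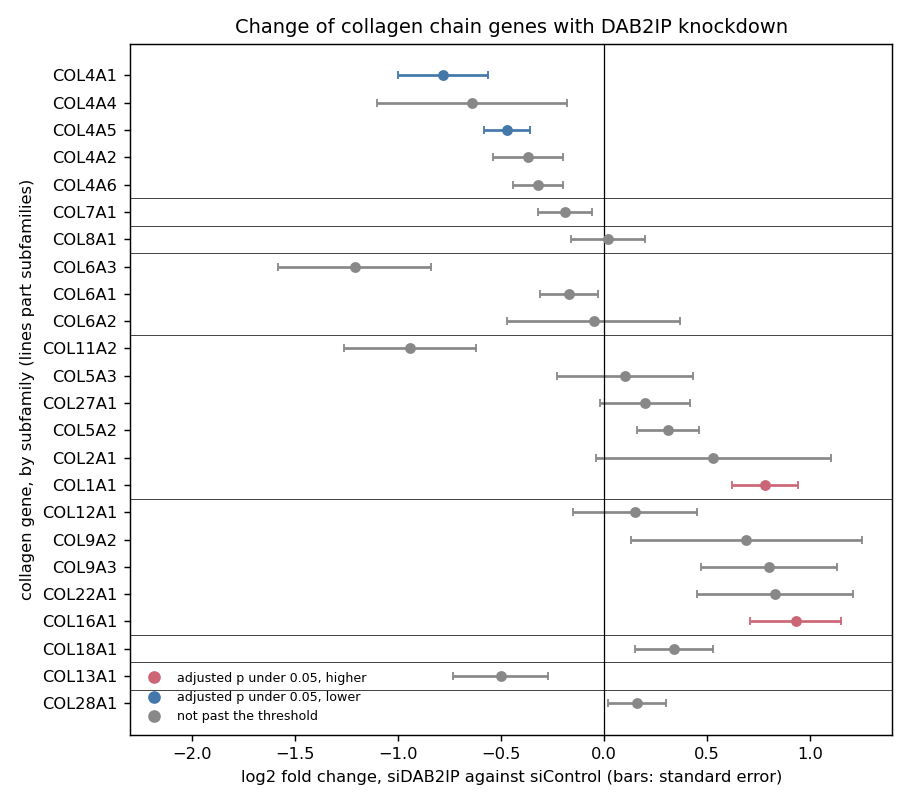
Log2 fold change of siDAB2IP against siControl (edgeR) for the 24 collagen genes tested, grouped by subfamily between lines, with bars of 1 standard error on either side. All 5 type IV genes lie left of 0 and all 5 FACIT genes right of it, with 2 genes past the threshold in blue (COL4A1, COL4A5) and 2 in red (COL16A1, COL1A1).

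Type IV collagen, the network of basement membranes, made up the largest part of the collagen counts. Of its 6 genes, 5 were tested, all 5 had a log2 fold change below 0 with a median of −0.47, and 2 of them fell. Of all 15430 genes tested, 7546 were below 0. COL4A3, the untested gene, had a mean of 0.0445 FPKM. The summed CPM of type IV genes was 51.5% to 55.9% of all collagen CPM in the siControl libraries and 39.3% to 46.8% in the siDAB2IP libraries, and these ranges do not overlap. Such shares are linked, since a rise of other collagen genes lowers them. The summed CPM itself was 1401 ± 169 in siControl and 1038 ± 28.4 in siDAB2IP (SD, n = 3 each). COL4A5 (chromosome X, 108439844 to 108697545, GRCh38) encodes the alpha5 chain. It was at 483, 533 and 539.7 CPM in siControl replicates 1, 2 and 3 and at 399, 358 and 363 CPM in siDAB2IP replicates 1, 2 and 3. All siDAB2IP libraries were lower than all siControl libraries. The log2 fold change was −0.47, or 0.72-fold (standard error 0.11, Benjamini-Hochberg adjusted p = 0.0173, edgeR). COL4A6 encodes its partner, the alpha6 chain, and was at 349, 368 and 369.8 CPM in siControl and 331, 292 and 249.8 CPM in siDAB2IP. Its groups did not overlap either, but its change of −0.32 on the log2 scale (standard error 0.12) did not pass the test (adjusted p = 0.105, edgeR). The call of COL4A5 was lost without siControl replicate 2 or 3 or siDAB2IP replicate 2, where its adjusted p was 0.0801, 0.0559 and 0.0556 (edgeR).

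COL4A1 (chromosome 13, 110148963 to 110307233) encodes the alpha1 chain, which with alpha2 forms the most widespread basement membrane collagen. It was at 116, 136 and 202 CPM in siControl replicates 1, 2 and 3 and at 67, 85.7 and 112 CPM in siDAB2IP replicates 1, 2 and 3. The highest siDAB2IP library lay just under the lowest siControl library, and replicate 3 was the highest of both groups. The log2 fold change was −0.78, or 0.583-fold (standard error 0.22, adjusted p = 0.0428, edgeR). Between libraries with the same replicate number, the log2 ratios were −0.80, −0.67 and −0.84, closer to each other than the libraries of a group were. COL4A2, the alpha2 chain, was at 297, 338 and 467 CPM in siControl and 246, 326 and 279.5 CPM in siDAB2IP. Its groups overlapped, and its log2 fold change (−0.37, standard error 0.17) did not pass the test (adjusted p = 0.18, edgeR). The FPKM ratio of COL4A1 to COL4A2 was 0.513, 0.529 and 0.565 in siControl and 0.356, 0.344 and 0.526 in siDAB2IP, so that the third siDAB2IP library lay within the siControl range. COL4A1 was no longer called with scaling by library size only (adjusted p = 0.0549), nor without siControl replicate 2 or 3 or siDAB2IP replicate 1 or 2 (adjusted p = 0.0899, 0.142, 0.111 and 0.098), and its log2 fold change was −0.53 without siControl replicate 3. These fits took no account of the replicate number. With a block on it, the log2 fold change of COL4A1 was −0.77 (standard error 0.09, adjusted p = 0.000852, edgeR). COL4A4, a chain known from the kidney, was at most 2.23 CPM and its log2 fold change (−0.64, standard error 0.46) did not pass the test (adjusted p = 0.392).

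**Figure D4:**
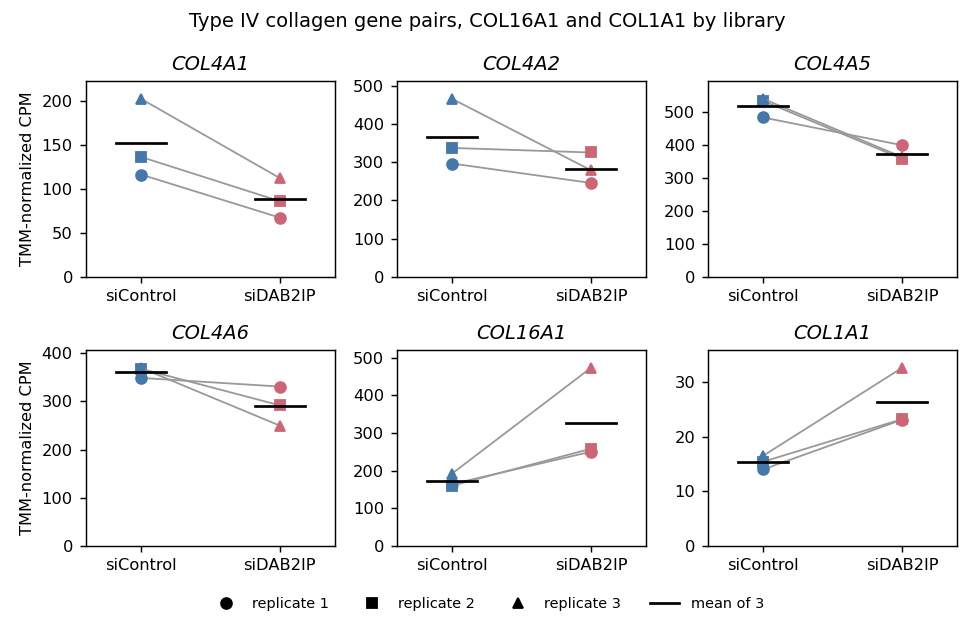
TMM-normalized CPM of the type IV pairs COL4A1 with COL4A2 and COL4A5 with COL4A6, and of COL16A1 and COL1A1, with grey lines joining libraries of the same replicate number, marker shape giving the number and a black bar the mean of 3. For COL4A1 the lines run downward side by side, while for COL16A1 the siDAB2IP replicate 3 library, at 473 CPM, lies far above the other two at 250.0 and 258 CPM.

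Of the 10 FACIT collagen genes, 5 were tested, all had a log2 fold change above 0 (median 0.80, range 0.15 to 0.93), and 1 rose. Of all 15430 genes tested, 7884 were above 0. The shared direction rests on few genes, and only COL16A1 passed the test. COL16A1 (chromosome 1, 31652247 to 31704319) encodes the alpha1 chain of type XVI collagen, a fibril-associated collagen also found near basement membranes. It was at 164, 159.7 and 192 CPM in siControl replicates 1, 2 and 3 and at 250.0, 258 and 473 CPM in siDAB2IP replicates 1, 2 and 3. All siDAB2IP libraries were higher than all siControl libraries, and siDAB2IP replicate 3 stood far above the rest. The log2 fold change was 0.93, or 1.9-fold (standard error 0.22, adjusted p = 0.0232, edgeR). It was 0.56 without siDAB2IP replicate 3, still past the threshold. Without siControl replicate 1, 2 or 3 it was 0.88, 0.86 and 1.00 and was not called (adjusted p = 0.0938, 0.106 and 0.0587). Of the exonic bases of COL16A1, 117 overlap the antisense gene AC114488.2, whose mean was 1.39 CPM. In the siDAB2IP libraries FACIT genes held 15.6% to 25.8% of collagen CPM, against 10.5% to 13% in the siControl libraries. Most of this difference was COL16A1: the mean summed CPM of FACIT genes was 301 in siControl and 474 in siDAB2IP, and that of COL16A1 was 172 and 327.

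COL12A1, whose product also decorates fibrils, was at 81.7, 97.2 and 193 CPM in siControl and 98.7, 131 and 182 CPM in siDAB2IP. Replicate 3 was the highest of both groups, and the groups overlapped (log2 fold change 0.15, standard error 0.30, adjusted p = 0.789, edgeR). COL22A1, a collagen of tissue junctions, was at 5.42, 4.32 and 1.76 CPM in siControl and 7.84, 8.47 and 4.17 CPM in siDAB2IP. Here replicate 3 was the lowest of both groups, each siDAB2IP library was above the siControl library of its number, and the groups overlapped. Its log2 fold change was 0.83 (standard error 0.38, adjusted p = 0.173, edgeR) without a block on the replicate number. With the block it was 0.88 (standard error 0.20, adjusted p = 0.0159, edgeR) and was called. Without the block it was called with no filter on low counts (adjusted p = 0.00591) and without siDAB2IP replicate 3 (adjusted p = 0.0405), so its call depends on the fit. The fit with no filter followed the spread of single genes less closely. It gave COL12A1 a standard error of 0.12, against 0.30 with the filter. COL9A3 and COL9A2, chains of the cartilage collagen type IX, had log2 fold changes of 0.80 and 0.69 at means of at most 1.68 CPM in a group and did not pass the test (adjusted p = 0.136 and 0.456, edgeR), and COL9A3 shares 45 exonic bases with TCFL5 on the opposite strand.

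Of the 11 fibrillar collagen genes, 6 were tested and 1 rose. COL1A1 (chromosome 17, 50183289 to 50201632), whose product is the main chain of connective tissue fibrils, was at 14, 15.4 and 16.5 CPM in siControl and 23.1, 23.2 and 32.6 CPM in siDAB2IP. All siDAB2IP libraries were higher than all siControl libraries. The log2 fold change was 0.78, or 1.72-fold (standard error 0.16, adjusted p = 0.0129, edgeR), at a CPM under that of COL4A1, COL4A2, COL4A5 and COL4A6 in every library. It was not called without siControl replicate 1 or 2 (adjusted p = 0.0621 and 0.067). COL5A2, which takes part in starting fibrils, was at 14.6, 12.9 and 12 CPM in siControl and 14.4, 16.1 and 18.3 CPM in siDAB2IP, groups that overlapped (log2 fold change 0.31, adjusted p = 0.193). COL11A2, a chain of cartilage fibrils, was at 5.48, 4.46 and 3.99 CPM in siControl and 1.47, 2.16 and 3.65 CPM in siDAB2IP. Its groups did not overlap, and its log2 fold change (−0.94, standard error 0.32) did not pass the test (adjusted p = 0.0776, edgeR), though it did by DESeq2 (adjusted p = 0.0473) and without siDAB2IP replicate 3, where it was −1.35 (adjusted p = 0.00698, edgeR). COL5A3, COL27A1 and COL2A1 had log2 fold changes of 0.10, 0.20 and 0.53, none of which passed the test.

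The remaining abundant collagen genes did not pass the test. COL7A1 was at 552, 463 and 573 CPM in siControl and 469, 405 and 518 CPM in siDAB2IP, overlapping groups in which each siDAB2IP library was below the siControl library of its number (log2 fold change −0.19, standard error 0.13, adjusted p = 0.365, edgeR). COL8A1, a short-chain collagen that forms networks around vessels and under the cornea's endothelium, was at 214, 222 and 282 CPM in siControl and 294, 256 and 179 CPM in siDAB2IP. Its ranges crossed, since replicate 3 was the highest of siControl and the lowest of siDAB2IP (log2 fold change 0.02, standard error 0.18, adjusted p = 0.952). COL6A1 was at 65.7, 58.4 and 65.8 CPM in siControl and 48.7, 50.7 and 69.2 CPM in siDAB2IP, with siDAB2IP replicate 3 apart from its group (log2 fold change −0.17, adjusted p = 0.449). It was called lower without siDAB2IP replicate 3 (log2 fold change −0.35, adjusted p = 0.0348, edgeR). COL6A3 was at 1.99, 1.67 and 3.17 CPM in siControl and 1.18, 1.11 and 0.638 CPM in siDAB2IP, with no overlap, and the log2 fold change was −1.21 (standard error 0.37, adjusted p = 0.0535, edgeR; 0.0416 over genes with at least 10 counts in every library). COL6A2 differed by −0.05 on the log2 scale (adjusted p = 0.951).

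COL18A1, a basement membrane collagen from which endostatin is cut, differed by 0.34 on the log2 scale (adjusted p = 0.264, edgeR). It shares 1401 of its 8525 exonic bases with SLC19A1 on the opposite strand, whose mean was 86.8 CPM against 20.4 ± 3.43 CPM (SD, n = 3) for COL18A1 in siControl, and since the strand used in counting is not given in the sources used here, its value is uncertain. COL13A1, a transmembrane collagen, was at 3.36, 3.34 and 3.52 CPM in siControl and 2.82, 2.1 and 2.32 CPM in siDAB2IP (log2 fold change −0.50, adjusted p = 0.175). COL28A1 differed by 0.16 on the log2 scale (adjusted p = 0.498), and its groups did not overlap because its 3 siDAB2IP libraries lay between 12.1 and 12.5 CPM. COL4A5, COL4A1 and COL1A1 share no exonic base with another annotated gene.

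Many collagen genes were highest in the libraries numbered 3. Replicate 3 was the highest of its group for 16 of the 24 genes in siControl and for 14 in siDAB2IP. For 10 genes (COL7A1, COL16A1, COL6A1, COL12A1, COL4A1, COL1A1, COL5A3, COL27A1, COL6A2 and COL4A4) it was the highest of both groups, and for 0 genes replicate 1 or replicate 2 was. The share of all genes tested that were highest in replicate 3 is not at hand. The pattern therefore cannot be read as particular to collagen genes. The fibroblast markers DCN, POSTN and FAP were also highest in replicate 3 of both groups, while PDGFRB, the other fibroblast marker tested, was lowest in siDAB2IP replicate 3 (0.232 CPM). This was not limited to fibroblast markers. Of the other lists, KRT17, KDR, VWF and an entry of RGS5 were also highest in replicate 3 of both groups. EPCAM, CDH1, TP63 and CD14 were lowest in replicate 3 of both groups. POSTN was at 6.36, 9.8 and 30.1 CPM in siControl and 7.45, 7.98 and 50.1 CPM in siDAB2IP. The part of the markers in this replicate pattern was not tested. With replicate 3 of both groups left out, 4 collagen genes rose and 3 fell. The share of all genes called in that fit is not at hand, so these counts cannot be read as particular to collagen genes. COL8A1 (log2 fold change 0.33, adjusted p = 0.0414), COL22A1 (0.75, adjusted p = 0.0301) and COL11A2 (−1.45, adjusted p = 0.00497, edgeR) were then called in addition to the 4 genes above.

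Genes that modify, fold, cut and bind collagen chains were examined next. Of a list of 47 such genes, 37 were tested, 4 rose (10.8%, beside 6.55% of all genes tested) and 0 fell by edgeR (beside 7.65%), with a median log2 fold change of 0.15, beside 0.01 for all genes tested. At an unadjusted p under 0.05, 8 of the 37 were higher and 6 lower, beside 2238 and 2398 of all 15430 genes tested. DESeq2 called 5 higher and 2 lower, with no share of all genes at hand for that fit. PLOD1, a lysyl hydroxylase, was at 344, 369 and 343 CPM in siControl and 536, 569.7 and 539 CPM in siDAB2IP, groups far apart from each other (log2 fold change 0.64, standard error 0.10, adjusted p = 0.00421, edgeR). P3H4, which assists lysyl hydroxylation, was at 89.2, 97.4 and 81.4 CPM in siControl and 142, 137 and 118 CPM in siDAB2IP, also without overlap (log2 fold change 0.57, standard error 0.11, adjusted p = 0.0101). FKBP14, a prolyl isomerase of the endoplasmic reticulum, rose by 0.44 on the log2 scale (standard error 0.12, adjusted p = 0.0372). ADAMTS14, a protease that removes the amino-terminal propeptide of fibrillar collagens, rose from 1.87, 1.07 and 0.47 CPM to 3.67, 2.66 and 2.73 CPM (log2 fold change 1.42, standard error 0.41, adjusted p = 0.045). FKBP14 was not called without siControl replicate 1, 2 or 3 or siDAB2IP replicate 1 or 2, nor ADAMTS14 without siControl replicate 2 or 3 or siDAB2IP replicate 1 or 2.

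The most general collagen-handling genes did not pass the test. SERPINH1, the collagen-specific chaperone HSP47, was at 322, 393 and 468 CPM in siControl and 329.6, 359.6 and 434 CPM in siDAB2IP (log2 fold change −0.08, standard error 0.15, adjusted p = 0.792, edgeR). P4HB, a subunit of the prolyl 4-hydroxylases, differed by −0.26 on the log2 scale (adjusted p = 0.139). ITGB1, the beta subunit of the collagen-binding integrins, differed by −0.04 (adjusted p = 0.895). With a block on the replicate number, 7 genes of the list rose (18.9%, beside 9.59% of all genes tested in that fit) and 3 fell (8.11%, beside 11.4%). The block added PLOD3, FKBP10 and MIA2 to the genes that rose, and ITGA10, ITGA1 (collagen-binding integrin subunits) and SEC23A (a coat protein of export vesicles) were the 3 that fell. PLOD3 shares 429 exonic bases with ZNHIT1 on the opposite strand, and ITGA1 shares 475 with PELO on its own strand, so their values are uncertain.

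**Figure D5:**
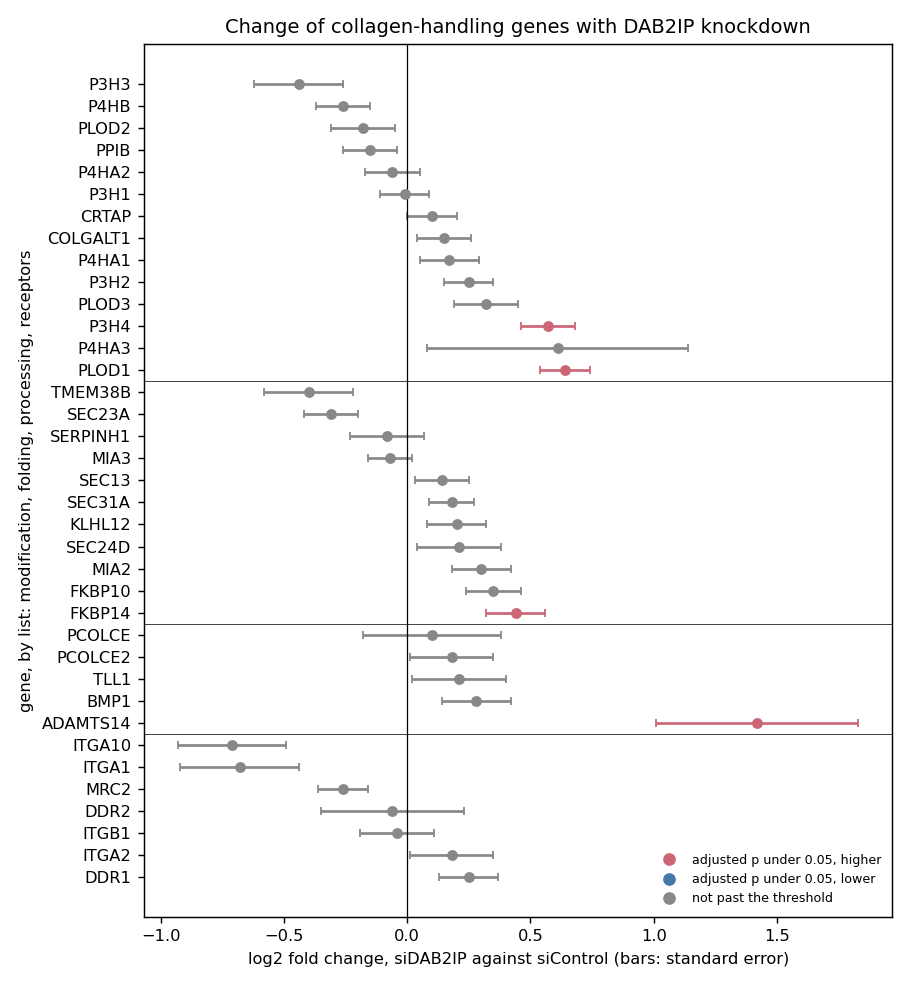
Log2 fold change of siDAB2IP against siControl (edgeR) for the 37 collagen-handling genes tested, grouped by list between lines, with bars of 1 standard error on either side. PLOD1, P3H4, FKBP14 and ADAMTS14, in red, are past the threshold, and ITGA10 and ITGA1 lie farthest to the left without passing it.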

How the data were processed

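RNA-Seq was performed on 3 siControl and 3 siDAB2IP libraries of MCF10A cells. The authors deposited counts per gene and library without normalization, and FPKM values, in which they divided counts by the summed length of each gene's annotated exons (the rule holds for 43 of the 43 collagen genes) and by a library total that was 98.86% to 104.7% of the summed counts. The submitters' processing notes name STAR 2.6.1d, featureCounts 1.5.0-p3, DESeq2 1.20.0, edgeR 3.24.3 and hg38, without their roles, and the strand setting is not given in the sources used here. All 58735 genes have the positions and strands of GENCODE release 29.

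The test was the quasi-likelihood test of edgeR 4.0.16 under R 4.3.3 (filterByExpr with the groups, TMM, glmQLFit, glmQLFTest) on the counts of 15430 genes, with Benjamini-Hochberg adjustment over all of them and a threshold of 0.05. Standard errors come from the quasi-likelihood F statistic. CPM are TMM-normalized. In simulated counts, drawn for 15214 genes with 3 libraries against 3, the test called 80% of the genes changed by a log2 fold change of 1 and 99% of those changed by 2. The alternatives were DESeq2 1.42.0, its size factors, library size only, no filter, a minimum of 10 counts in each library, the protein-coding genes alone, the replicate block, limma 3.58.1 on log2(FPKM + 1) and log2(FPKM + 0.1), an adjusted p under 0.01 and each library left out. Leaving out replicate 3 of both groups was chosen after seeing the data.

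The members and lists were chosen with earlier results of these data known. Genes were named by a rule: DAB2IP, collagen genes called, the 8 with the highest mean FPKM, the chains of the type I, IV, V, VI, VIII and IX trimers, the called collagen-handling genes, SERPINH1, P4HB and ITGB1. COL11A2, COL22A1, COL13A1, COL28A1, COL18A1, COL3A1 and genes called under 1 alternative only were named after their values were seen. Libraries with the same replicate number deviated together from their group means (correlation across genes 0.265, 0.155 and 0.255, against −0.278 to 0.0207 for different numbers), which is some evidence of pairing, although the labels do not say what the numbers stand for. Deviations of a gene cancel within a group. Positive values for same numbers therefore push those for different numbers down, and the latter are no independent baseline. The reported values come from the fit without a block. With the block, the adjusted p (edgeR) was 0.0126 for COL4A5, 0.000852 for COL4A1, 0.00365 for COL16A1 and 0.00434 for COL1A1. The promoter search used the 35116 windows of RefSeq (GRCh38.p14).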

Additional observations from a re-analysis of the deposited data

How the results depend on the processing

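The 2 collagen genes that rose and 2 that fell, and the 4 handling genes that rose and 0 that fell, were recounted under every alternative. The share of all genes called is at hand only for the reported fit and the replicate block, so the other counts have no background. By DESeq2, 2 handling genes fell. With scaling by library size only, 1 collagen gene fell. With no filter, 5 collagen genes (COL4A2, COL6A3 and COL11A2 in addition) and 3 handling genes fell. That fit gave abundant genes of unlike spread nearly the same standard error. It was 0.12 for COL4A1 and COL8A1 and 0.13 for COL16A1, against 0.22, 0.18 and 0.22 in the reported fit. Its calls therefore say little about the spread between libraries. With the replicate block, 7 handling genes rose and 3 fell, and COL22A1 was the only collagen gene whose call it changed. By limma on log2(FPKM + 1) and on log2(FPKM + 0.1) with a mean FPKM of at least 1, 1 collagen gene rose (COL1A1) and 1 fell (COL4A5), and 2 handling genes rose. On log2(FPKM + 1) without the FPKM minimum, 0 collagen genes rose, 0 fell and 1 handling gene rose, as with an adjusted p under 0.01. Without replicate 3 of both groups, 4 collagen genes rose and 2 handling genes fell. With each library left out in turn, 0 to 3 collagen genes rose, 0 to 4 fell, 2 to 6 handling genes rose and 0 to 1 fell. Fewer collagen genes rose without siControl replicate 1, 2 or 3, and fewer fell without siControl replicate 2 or 3 or siDAB2IP replicate 1 or 2. The causes of these differences were not tested. COL16A1, COL1A1, COL4A1 and COL4A5 kept their direction in 18 of 18 alternatives and passed the threshold in 11, 14, 9 and 13 of them. Each of these counts includes the fit with no filter. The median log2 fold change of the collagen genes lay between −0.11 and 0.22 over the alternatives, and the ratio of summed levels was 90.6% to 93.5% over library size only, DESeq2 size factors and summed FPKM. With libraries left out, chosen after seeing the data, this ratio was 87.3% to 97.4%, the highest without siControl replicate 3, and 93.7% without replicate 3 of both groups. A total of 19 values of 7 genes, 0 of which were called, changed sign. COL8A1 became −0.08 and −0.05 without siControl replicates 1 and 2 and −0.14 and −0.02 without siDAB2IP replicates 1 and 2 (up to 0.20 with another library left out). COL12A1 became −0.09, −0.01 and −0.11 without siControl replicate 1, siControl replicate 2 and siDAB2IP replicate 3 (up to 0.60). COL5A3 became −0.04 without siControl replicate 2, −0.41 without siDAB2IP replicate 3 and −0.28 without replicate 3 of both groups (up to 0.36), and COL27A1 −0.05 without siDAB2IP replicate 3 (up to 0.32). COL6A2 became 0.45 without siControl replicate 3, 0.05 and 0.10 without siDAB2IP replicates 1 and 2 and 0.15 without replicate 3 of both groups (down to −0.37). ITGB1 became 0.10 without siDAB2IP replicate 3 and 0.11 without replicate 3 of both groups (down to −0.13), and SERPINH1 0.05 without siControl replicate 3 and 0.01 without siDAB2IP replicate 1 (down to −0.22). DESeq2 gave no adjusted p for COL9A2 and COL2A1. Of the 19 collagen genes that did not pass the filter, 15 were fitted without it and 0 were called by edgeR, also 0 at an unadjusted p under 0.05.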
